A study of Mus musculus with 36 samples.

Results

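The 161 genes described here belong to the families of the type 2 vomeronasal receptors (symbols beginning with Vmn2r, 123 genes), the sweet and umami taste receptors (Tas1r, 3 genes) and the bitter taste receptors (Tas2r, 35 genes). They were chosen by symbol alone, without symbols containing -ps, from the 40205 genes of the table. GENCODE vM39 lists Vmn2r46 and Vmn2r89 among them as pseudogenes. The libraries came from wild-type C57BL/6J mice (the methods name the Ai14 reporter line on this background). Neural stem cells (NSCs) from the dorsal telencephalon of gestational day 12.5 fetuses were pooled by sex within each of 3 pregnancies (sets 3, 4 and 5), grown as neurospheres to passages 7 to 10, and kept for 5 days in medium with ethanol at 0, 120 or 320 mg/dL (0, 26 or 70 mM). Each of the 18 samples, 4 flasks of 1 culture at 1 dose, gave a library of the cells and a library of the extracellular vesicles (EVs) pelleted from their medium. There were thus 3 libraries of each location, sex and dose, all from 6 passaged cultures.

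Vomeronasal type 2 receptors are class C G protein-coupled receptors of the basal sensory neurons of the vomeronasal organ, where most neurons express 1 of the variable receptors together with broadly expressed co-receptors such as Vmn2r1, and signal through the G protein subunit Gαo and the channel Trpc2. Tas1r3 pairs with Tas1r2 as the sweet receptor and with Tas1r1 as the umami receptor, and the single-exon Tas2r genes encode bitter receptors; in taste cells they signal through gustducin (Gnat3), Plcb2, Itpr3 and Trpm5. None of these receptors has a known role in cortical stem cells, so their summed level served as a measure of how many counts fall on receptor genes that are expected to be silent.

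The files held 959217 to 5509952 counts per EV library and 26566061 to 55282322 per cell library. Levels are therefore given on the counts-per-million scale (CPM) of each library's total, and a count of 0 in an EV library allowed a level of up to 0.544 to 3.13 CPM by the rule of 3 counts, against 0.0543 to 0.113 CPM in a cell library. The summed level of 12 neural stem cell markers was 3178 to 6043 CPM in the cells and 295 to 1224 CPM in the EVs. Sox2 and Sox1, which define these cells, and the vomeronasal genes Omp and Trpc2 were all listed at 0 in all 36 libraries, and each of the 4 overlaps at least 1 other gene of the table, so that a 0 in this table does not show that a transcript was missing. Summed over 4 Y-linked genes, every male library (EVs 17.7 to 47.3 CPM, cells 202 to 280 CPM) was above every female library of its location (EVs at most 8.20 CPM, cells at most 1.58 CPM). The control EV library of the female set 4 culture stood apart from the other EV libraries in the summed receptor level, and the sums, their ratios and the EV calls are also given without it.

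Many Vmn2r genes are close copies of each other, and a read that fits several places equally well may be lost or misplaced. To show the range, 100 coding bases of Vmn2r21 are set against the matching stretches of other Vmn2r genes, read from GRCm39 on the coding strand, with the bases that differ from Vmn2r21 in capitals.
Vmn2r21, chr6:123469810-123469909, minus strand: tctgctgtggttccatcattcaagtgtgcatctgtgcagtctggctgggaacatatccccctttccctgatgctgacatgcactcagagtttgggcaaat
Vmn2r22, chr6:123587060-123587159, minus strand: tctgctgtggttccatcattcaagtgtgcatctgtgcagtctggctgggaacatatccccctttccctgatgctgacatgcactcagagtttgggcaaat
Vmn2r20, chr6:123362564-123362663, minus strand: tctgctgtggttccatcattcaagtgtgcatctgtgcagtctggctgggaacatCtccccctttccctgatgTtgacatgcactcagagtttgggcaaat
Vmn2r26, chr6:124038552-124038651, plus strand: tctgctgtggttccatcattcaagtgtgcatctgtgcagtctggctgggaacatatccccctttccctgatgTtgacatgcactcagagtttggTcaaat
Vmn2r63, chr7:42553045-42553144, minus strand: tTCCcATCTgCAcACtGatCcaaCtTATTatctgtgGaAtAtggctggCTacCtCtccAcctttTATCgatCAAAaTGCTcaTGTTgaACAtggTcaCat
Vmn2r29, chr7:7234681-7234780, minus strand: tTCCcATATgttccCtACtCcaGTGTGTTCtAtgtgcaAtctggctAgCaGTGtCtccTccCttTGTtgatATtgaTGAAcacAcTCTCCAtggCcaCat
The stretches of Vmn2r21 and Vmn2r22 were identical, those of Vmn2r20 and Vmn2r26 each differed from it at 2 of the 100 bases, and those of Vmn2r63 and Vmn2r29 at 47. Over whole genes, exact copies elsewhere in the genome covered 81 of the 81 exonic windows of 100 bases in Vmn2r21, but 8.72% of the windows of Vmn2r26, 10.43% of those of Vmn2r63 and 75.4% of those of Vmn2r29.

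The first comparison asks how much of the EV and of the cell libraries fell on these receptor genes. Summed over the 161 genes, the level was 39.0 to 177 CPM in the 18 EV libraries (median 56.6, mean 68.0 ± 32.4 SD) and 16.1 to 27.9 CPM in the 18 cell libraries (median 19.7, mean 20.2 ± 3.50 SD). Every EV library lay above every cell library. In such bulk libraries, fewer cells or vesicles that carry a transcript and less RNA in each cannot be told apart. Within the 6 cultures the log2 ratio of EVs to cells averaged 1.68 ± 0.58 SD, or 3.20-fold, from 1.16 in the male set 4 culture to 2.69 in the female set 4 culture. The female set 4 control EVs were the highest at 177 CPM, with a 95% Poisson interval of 156 to 201 CPM that covers counting error only. Without that library the EV mean was 61.6 ± 18.01 CPM (n = 17), the highest EV value was 92.2 CPM and the mean log2 ratio of EVs to cells was 1.59.

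**Figure D1:**
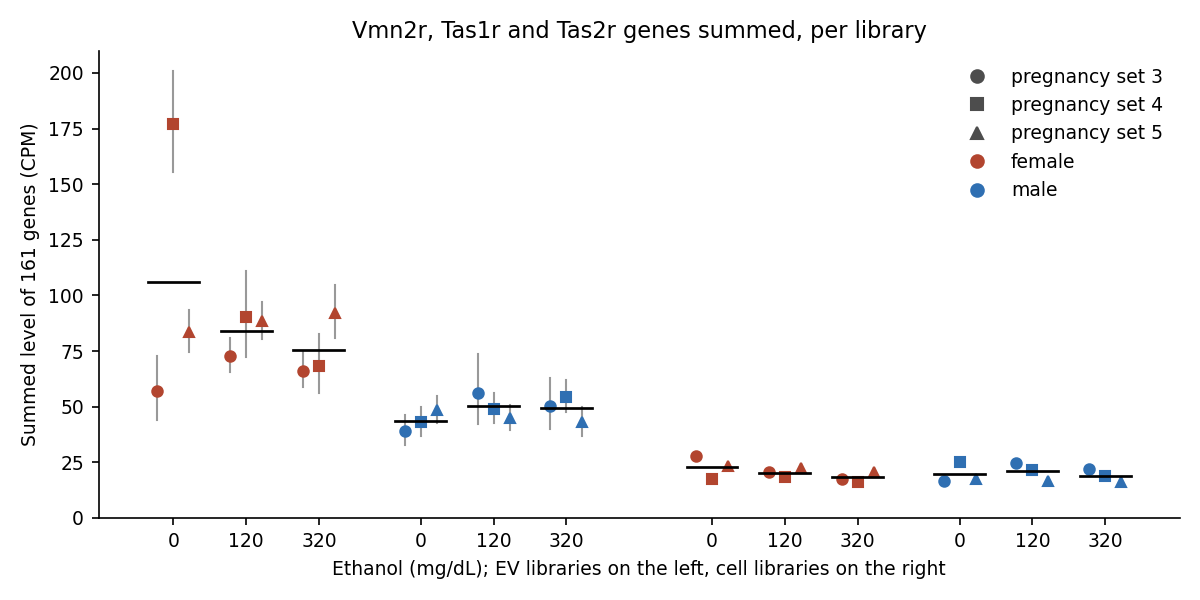
Summed level of the 161 Vmn2r, Tas1r and Tas2r genes (CPM, linear axis from 0) in each of the 36 libraries, by location, sex and ethanol dose; symbols give the pregnancy set, black bars the mean of 3 libraries and grey lines the 95% Poisson interval of the count. The 18 EV libraries (39.0 to 177 CPM) sit above the 18 cell libraries (16.1 to 27.9 CPM), and female EVs (red, 56.9 CPM or more) above male EVs (blue, at most 56.3 CPM). The lowest female and the highest male EV value lie within each other's intervals.

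These sums rest on few counts, 3680 over all EV libraries and 13748 over all cell libraries. A count was seen for 153 of the 161 genes in at least 1 library, 22 genes had 0 counts in every EV library and 13 had 0 in every cell library. The 8 genes with no count anywhere were Vmn2r2, Vmn2r88, Vmn2r89 and 5 bitter receptor genes. No EV library held more than 3 counts of 103 of the genes, and no cell library more than 3 counts of 83. A single EV library showed 25 to 102 of the genes (median 60.5) and a single cell library 69 to 104 (median 89). The order turned when every library was thinned to the 959217 counts of the smallest one, with 22 to 76 genes in EVs (median 28.5) and 8 to 19 in cells (median 11.5). At equal depth, every EV library thus showed more of the receptor genes than any cell library.

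The vomeronasal receptors made up most of the sum and of the difference. Summed over the 123 Vmn2r genes, the level was 36.7 to 174 CPM in EVs (mean 65.5 ± 32.0 SD) and 11.9 to 24.0 CPM in cells (mean 16.8 ± 3.04 SD, n = 18 each), without overlap, and the log2 ratio over the 6 cultures was 1.88 ± 0.58 SD. The mean level was higher in EVs for 118 of the 123 genes, lower for 2 and equal at 0 for 3. In all 6 cultures together, however, only 29 genes were higher in EVs than in cells each time. Across the 122 Vmn2r genes found in the annotation, the counts in EVs and in cells ranked alike (Spearman's rho 0.92, a description across genes that share libraries, sequence and depth).

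Vmn2r26, known as a receptor for peptide ligands of MHC class I molecules, had the highest level in EVs. Its level was 2.58 to 14.6 CPM in the 18 EV libraries (median 12.6, from 4 to 74 counts) and 0.0761 to 0.655 CPM in the 18 cell libraries (median 0.265, from 3 to 27 counts). No EV library overlapped a cell library, and the 3 lowest EV values, 2.58, 5.13 and 6.23 CPM, came from the female set 4 culture at 320 and 120 mg/dL and the male set 3 culture at 320 mg/dL. By edgeR's quasi-likelihood test with Benjamini-Hochberg adjustment, the fitted EV-to-cell difference was 5.69 on the log2 scale (SE 0.27) with an adjusted p of 3.0e-20, and its log2 value ran from 5.13 to 6.15 over the alternatives tried. Vmn2r26 reached the level of the filter on low counts in 18 EV libraries but in only 2 cell libraries. It was thus tested through the EV libraries where it was high, and its call is given as a description. It was the only one of the 153 receptor genes with a count for which every EV library lay above every cell library, a pattern shown by 1.52% of the 31069 genes with a count. Vmn2r26 took 18.6% of all receptor counts in EVs and held the most receptor counts in 11 of 18 EV libraries, but at most 3.40% of them in any cell library. The gene lies at chr6:124001527-124042765 (plus strand, GRCm39), has 8067 exonic bases in GENCODE vM39, and has a small nucleolar RNA gene, Gm24843, on the opposite strand within its span that shares 0 of its exonic bases.

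Vmn2r63, a receptor on chromosome 7 with no overlapping gene (chr7:42546135-42583246, minus strand), came second in EVs. It showed 0.548 to 20.7 CPM in EVs (median 3.38) and 0.191 to 1.64 CPM in cells (median 0.660), and the groups overlapped. In the edgeR fit the EVs were higher by 3.34 on the log2 scale (SE 0.41) with an adjusted p of 2.0e-09, and EV means were higher in 6 of 6 cultures. Together with Vmn2r26 it held 28.1% of the receptor counts in EVs. Without both genes the sum was 27.6 to 165 CPM in EVs and 15.4 to 27.0 CPM in cells, and the EV libraries still lay above all cell libraries.

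**Figure D2:**
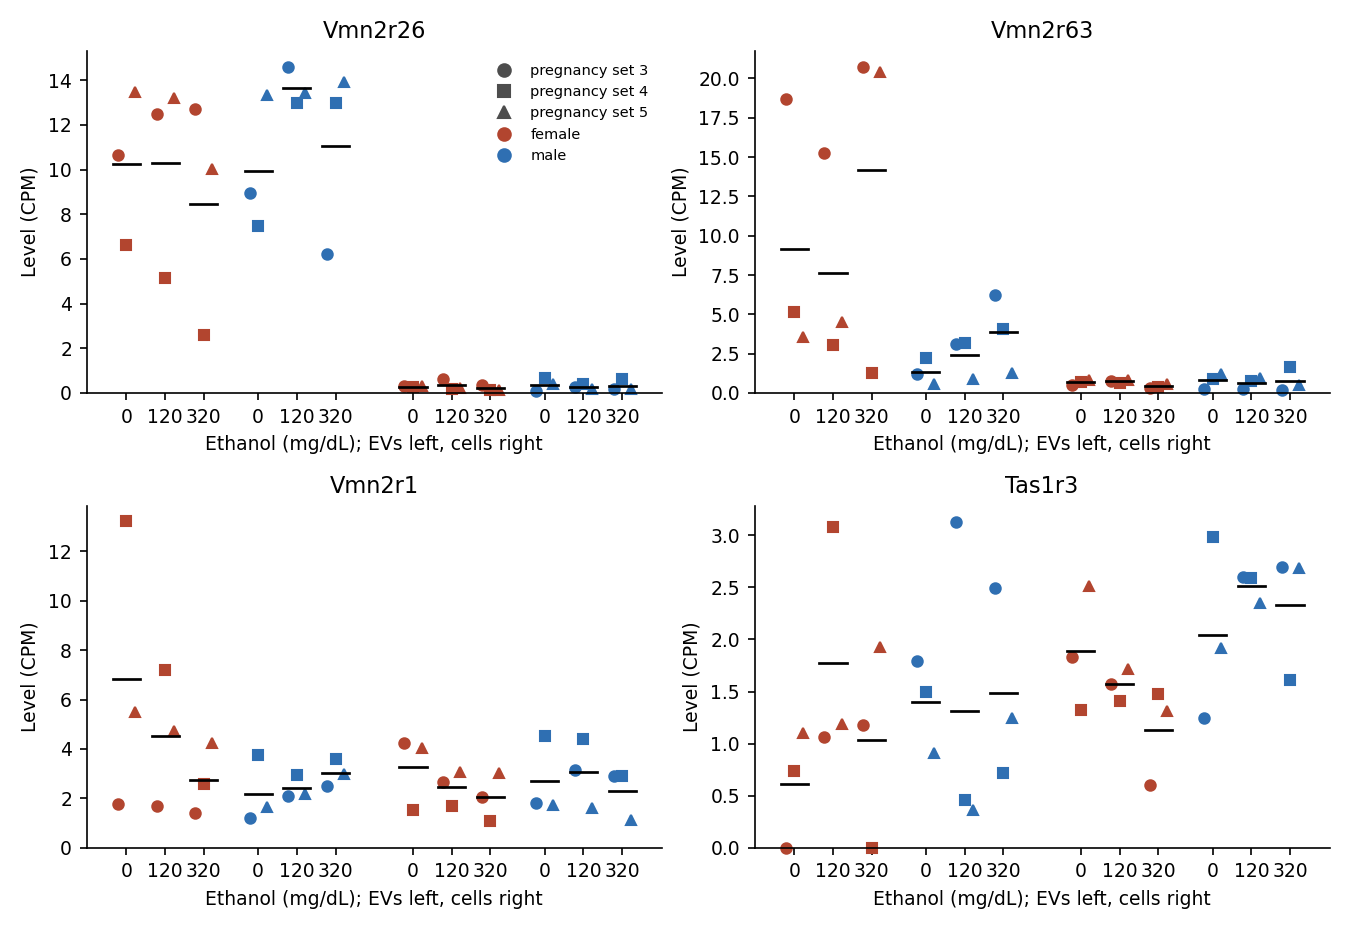
Level (CPM, linear axes from 0) of Vmn2r26, Vmn2r63, Vmn2r1 and Tas1r3 in each library, with EVs on the left and cells on the right of each panel, by sex and ethanol dose; symbols give the pregnancy set and black bars the mean of 3 libraries. Vmn2r26 is at 2.58 CPM or more in EVs and at 0.655 CPM or less in cells, the 4 highest values of Vmn2r63 are female EVs, and Vmn2r1 and Tas1r3 overlap between EVs and cells.

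The receptors highest in the cells behaved differently. Vmn2r29 (chromosome 7) was at 2.57 to 6.13 CPM in cells (median 3.66) and at 1.04 to 5.61 CPM in EVs (median 2.43), with wide overlap and no call (edgeR log2 difference 0.16, SE 0.15, with an adjusted p of 0.29). The difference was -0.34 with library totals and 0.51, a call with an adjusted p of 9.7e-04, with median-of-ratios factors. It held the most receptor counts in 15 of 18 cell libraries. GENCODE places it on the same strand as Gm45844, which is no gene of the table and with which it shares 2228 exonic bases. The co-receptor Vmn2r1 (chromosome 3) was at 1.10 to 4.51 CPM in cells (median 2.79) and 1.19 to 13.2 CPM in EVs (median 2.77). These ranges overlapped, and EV means were higher in 3 of 6 cultures. Its fitted difference of 0.88 on the log2 scale (SE 0.23, edgeR, with an adjusted p of 8.6e-04) passed the test, but it was 0.36 with an adjusted p of 0.19 under scaling to library totals, and its adjusted p was 0.063 without set 5.

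Named by the same rule, Vmn2r94, Vmn2r96, Vmn2r102, Vmn2r103, Vmn2r107, Vmn2r73, Vmn2r90 and Vmn2r19 were each called higher in EVs and were higher in 6 of 6 cultures. Their fitted log2 fold changes ran from 2.11 for Vmn2r94 to 3.78 for Vmn2r90. Counts were low throughout: Vmn2r107 had 0 to 25 counts per EV library and 3 to 40 per cell library, at mean levels of 1.81 and 0.398 CPM. Vmn2r90 had 0 to 4 and 0 to 6 counts, at 0.591 and 0.0435 CPM. The EV and cell ranges overlapped for each of these 8 genes. For Vmn2r96, Vmn2r102, Vmn2r103, Vmn2r73, Vmn2r90 and Vmn2r19 no cell library reached the level of the filter on low counts. They could thus be tested only through the EV libraries where they were high, and their calls are given as a description. Vmn2r107 reached that level in 13 EV libraries and 3 cell libraries, and its call is given in the same way.

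**Figure D3:**
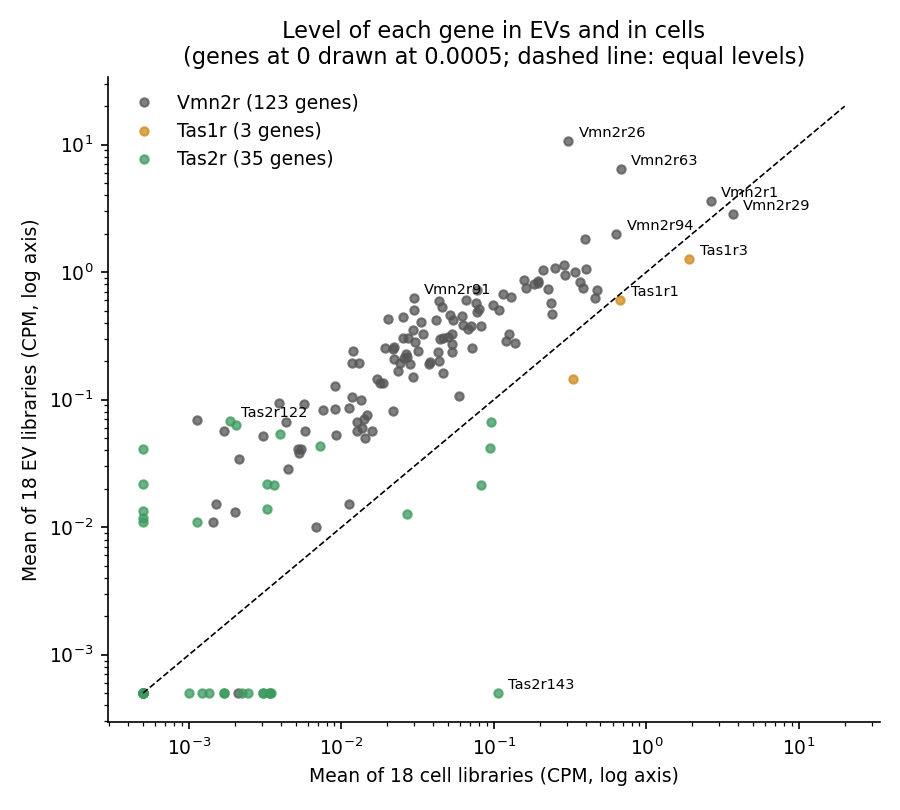
Mean level of each gene in the 18 cell libraries (x axis) and in the 18 EV libraries (y axis), CPM on log axes, with genes at 0 drawn at 0.0005 and a dashed line at equal levels. Of the 123 Vmn2r genes 118 lie above the line, with Vmn2r26 highest on the EV axis, while the 3 Tas1r genes lie below it.

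In the fit of EVs against cells over all genes, few of the receptor genes could be tested. The filter on low counts kept 17758 genes, of which 81.8% were called at an adjusted p under 0.05 (38.1% higher and 43.7% lower in EVs). Only 28 of the 161 receptor genes passed it, 26 Vmn2r and 2 Tas1r genes, and 24 were called higher and 0 lower (24 at an unadjusted p under 0.05). Of these 28, 14 reached the filter's level in EV libraries alone, and only 6 reached it in 8 or more cell libraries. The others entered the fit through EV libraries where they were high, so the count is not read as a share of the family. With no filter, 153 receptor genes were tested and 111 were called higher and 2 lower, against 40.7% and 30.2% of all 31069 genes. Their median log2 fold change was 2.20, against 0.46 for all genes. By family, 102 of 120 Vmn2r genes were higher and 0 lower, 9 of 30 Tas2r genes higher and 1 lower, and 0 of 3 Tas1r genes higher and 1 lower. DESeq2 without the filter called 109 receptor genes higher and 0 lower, against 54.8% of all genes higher, with a median log2 difference of 1.73 over all genes. With the 2 libraries of each sample paired as a replicate block, 81 passed the filter and 77 were called, all higher (42.1% of all genes tested were called higher). Without the female set 4 control EV library, 46 passed and 41 were called, all higher (38.9% of all genes). Members entered both fits through EV libraries too, and nothing is read from these 2 counts.

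The scaling moved all genes together. The median log2 fold change over all genes tested was -0.14 with TMM factors, 0.22 with median-of-ratios factors and -0.65 with library totals, and the calls split into 6766 higher and 7761 lower, 8142 and 6289, and 5219 and 9543, in that order. Of the 28 receptor genes that passed the filter, median-of-ratios factors called 27 higher and 0 lower. With library totals 21 receptor genes were called higher and 1, Tas1r3, lower.

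The sweet and umami receptors did not share the excess in EVs. Summed over the 3 Tas1r genes, the level was 0 to 4.98 CPM in EVs (mean 2.02 ± 1.23 SD) and 1.58 to 4.17 CPM in cells (mean 2.92 ± 0.734 SD, n = 18 each), with wide overlap and a log2 ratio over the cultures of -0.60 ± 0.47 SD. Tas1r3, the subunit common to both receptors, was at 0 to 3.13 CPM in EVs (median 1.14) and 0.602 to 2.98 CPM in cells (median 1.77). Its log2 difference of -0.18 (SE 0.23, edgeR, with an adjusted p of 0.47) was not called. It turned to 0.17 with median-of-ratios factors and 0.03 without set 4, neither of them called, and was -0.71 with library totals, a call with an adjusted p of 0.010. Tas1r1, the umami subunit, was at 0 to 1.87 CPM in EVs (median 0.571) and 0.429 to 1.06 CPM in cells (median 0.607), with a log2 difference of 0.43 (SE 0.25, edgeR) and an adjusted p of 0.11. Median-of-ratios factors (0.77) or leaving out set 4 (0.72) turned it into a call, with adjusted p-values of 0.0071 and 0.028, and it was -0.12 with library totals and -0.11 without set 5. Tas1r2, the sweet subunit, had 10 counts over all EV libraries and 232 over all cell libraries and did not pass the filter.

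The Tas1r genes lie next to or within expressed genes of chromosome 4. Tas1r3 (chr4:155943725-155947819, minus strand) shares 3495 of its 3523 exonic bases with GENCODE's Dvl1 on the opposite strand, a Wnt pathway gene at a mean of 40.4 CPM in EVs and 45.5 CPM in cells. Tas1r1 (chr4:152112371-152123733, minus strand) begins 35 bases from Nol9 on the opposite strand, a ribosome biogenesis gene at 14.5 and 34.2 CPM. Which strand setting was used in counting is not given in the sources used here, so counts of Tas1r3 and Dvl1 could not be told apart by strand.

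The bitter receptors were at the lower limit of the data. All 35 Tas2r genes together had 29 counts in the EV libraries and 315 in the cell libraries. Their summed level was 0 to 2.21 CPM in EVs (mean 0.538 ± 0.641 SD) and 0.0753 to 1.29 CPM in cells (mean 0.460 ± 0.288 SD), so the groups overlapped. Of the 35 genes, 18 had 0 counts in all EV libraries, 10 had 0 in all cell libraries and 5 had 0 in both, and none passed the filter. In cells the highest were Tas2r143, Tas2r137, Tas2r135, Tas2r108 and Tas2r126, with 72, 67, 66, 56 and 18 counts. Tas2r137 and Tas2r108 lie within the span of Ssbp1, a gene for a mitochondrial DNA-binding protein, without sharing its exonic bases. Tas2r143 had 0 counts in all 18 EV libraries. Over the EV libraries together this allowed a level of up to 0.0511 CPM (3 counts over the group), against 0.107 CPM over the cell libraries together. The pooled cell level was 2.09-fold that limit. This ratio leaves out the counting error of the 72 cell counts and the spread between libraries, and it rests on scaling to library totals. It was called lower by edgeR without the filter, with an adjusted p of 0.041, but DESeq2 gave a log2 difference of 0.35 that was not called. In EVs the highest, Tas2r122, Tas2r137, Tas2r106, Tas2r140 and Tas2r107, had 2 or 3 counts each over 18 libraries.

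Per length, the families kept a wide spread. With each family's summed CPM divided by its coding length in GENCODE vM39, the median over libraries was 0.176 CPM per kb in EVs and 0.0528 in cells for Vmn2r, 0.253 and 0.354 for Tas1r, and 0.0111 and 0.0123 for Tas2r. The type 1 vomeronasal receptors (Vmn1r, 228 genes with a length), which belong to the apical neurons of the same organ, were at 0.0113 and 0.00478 CPM per kb. Per exonic length, which is 946 kb for Vmn2r against 313 kb of coding length and 34.1 against 33.0 kb for Tas2r, the medians in EVs and cells were 0.0581 and 0.0175 CPM per kb for Vmn2r, 0.190 and 0.266 for Tas1r, 0.0107 and 0.0119 for Tas2r, and 0.00272 and 0.00115 for Vmn1r. On either length Vmn2r had a higher median than Tas2r and Vmn1r in both locations, but in cells its range per exonic length overlapped that of Tas2r (0.0126 to 0.0254 against 0.00221 to 0.0379 CPM per kb). Among other chemoreceptor families, the ratio of mean summed CPM in EVs to that in cells was 3.61 for 230 Vmn1r genes, 3.96 for 1106 olfactory receptor genes, 10.9 for 15 trace amine receptor genes, and for comparison 3.90 for Vmn2r, 0.691 for Tas1r and 1.17 for Tas2r. An excess in EVs close to that of Vmn2r was therefore also seen over olfactory receptor genes, whose sum was 19.8 to 121 CPM in EVs and 7.02 to 15.7 CPM in cells and was highest in the same female set 4 control EVs. The ratio of the trace amine receptor genes rested on few counts, with sums of 0 to 2.21 CPM in EVs and 0 to 0.102 CPM in cells.

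**Figure D4:**
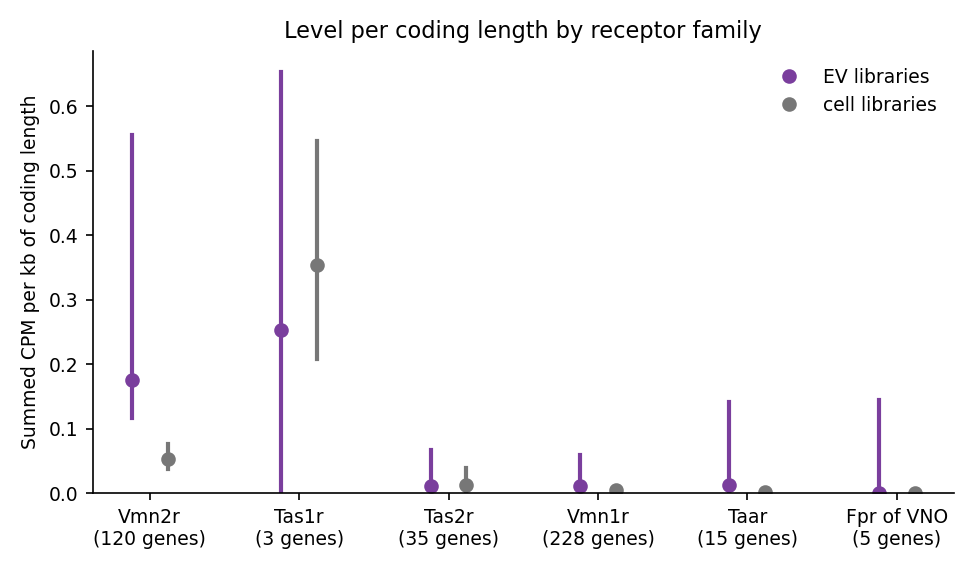
Summed CPM per kb of coding length by receptor family (linear axis from 0), for EV libraries (purple) and cell libraries (grey); points are medians and bars run from the lowest to the highest of 18 libraries. Vmn2r is at a median of 0.176 in EVs and 0.0528 in cells without overlap, and Tas1r, at 0.253 and 0.354, overlaps between the locations.

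Vmn2r genes differed in their counts by chromosome and by how unique their sequence is. The ratio of summed EV to cell CPM was 11.6 for the 9 Vmn2r genes of chromosome 6, but 3.76 for the other 8 of them without Vmn2r26. It was 5.73 for the 8 genes of chromosome 10, 5.46 for the 32 of chromosome 17, 3.97 for the 11 of chromosome 5, 2.84 for the 51 of chromosome 7 and 1.78 for the 7 of chromosome 3, which include Vmn2r1. The single genes of chromosomes X and 4 had 6 and 1 counts in each location, and both genes of chromosome 14 had 0. Of the 122 annotated Vmn2r genes, the 84 with a copy of under 20% of their windows had a median of 17 counts over all EV libraries and 29.5 over all cell libraries. The 25 genes with copies of 20% to 80% had medians of 9 and 19, and the 13 genes with copies of 80% or more medians of 2 and 4. These classes also differ in length, and per exonic kb the medians in EVs were 0.0349, 0.0251 and 0.0160 CPM and in cells 0.00502, 0.00372 and 0.00266 CPM, in the same order. Pooled over the genes of a class, the levels per exonic kb were 0.0722, 0.0639 and 0.0279 CPM in EVs. In cells they were 0.0145, 0.0374 and 0.00645 CPM, highest in the middle class. Vmn2r21, whose stretch is printed above beside its identical copy in Vmn2r22, had 1 count in EVs and 4 in cells, Vmn2r22 had 8 and 17, and Vmn2r20 had 11 and 9. Across genes, Spearman's rho of counts with the share of copied windows was -0.38 in EVs and -0.33 in cells, and with exonic length 0.22 and 0.19 (122 genes, a description). How reads with several equal places were counted is not given in the sources used here, and its part in these counts was not tested.

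In EVs the summed level differed between the sexes. It was 56.9 to 177 CPM in the 9 female EV libraries (median 83.5) and 39.0 to 56.3 CPM in the 9 male EV libraries (median 48.4), without overlap. The gap was within counting error. The lowest female library had 64 counts (Poisson interval 43.8 to 72.7 CPM) and the highest male library 54 (42.3 to 73.5 CPM). The log2 ratio of female to male was 0.43, 1.20 and 0.95 in sets 3, 4 and 5 (mean 0.86 ± 0.39 SD). The same mean ratio in EVs was 1.42 ± 0.29 SD for Vmn1r and 0.74 ± 0.59 SD for olfactory receptor genes. The female excess was thus not particular to the receptor genes described here. In the edgeR fit without the filter, the median log2 difference between the sexes in EVs was 0.22 over all genes and 1.02 over these receptor genes. Without the female set 4 control library the female EVs were at 56.9 to 92.2 CPM (n = 8) and the mean log2 ratio was 0.69. Without Vmn2r26 and Vmn2r63 the female EVs were at 27.6 to 165 CPM and the male EVs at 27.9 to 38.6 CPM, and the groups overlapped, while the mean log2 ratio of female to male was 0.90. In cells, females were at 16.2 to 27.9 CPM and males at 16.1 to 24.9 CPM, with a log2 ratio of 0.04 ± 0.36 SD. Female EV libraries were also shallower, at a median of 2593303 counts against 4020147 in males, and the part of depth in the difference was not tested. At equal depth the female EVs showed 23 to 76 of the receptor genes (median 44) and the male EVs 22 to 30 (median 25).

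Of single genes, Vmn2r63 differed between female and male EVs. Its level in female EVs was 18.7, 15.3 and 20.7 CPM in set 3 at 0, 120 and 320 mg/dL, 5.15, 3.08 and 1.29 CPM in set 4, and 3.57, 4.54 and 20.4 CPM in set 5. In male EVs it was 1.19, 3.13 and 6.23 CPM in set 3, 2.24, 3.19 and 4.09 CPM in set 4, and 0.548, 0.907 and 1.24 CPM in set 5. The 4 highest values were all female, but the set 4 libraries of the sexes overlapped. The edgeR fit took the 9 libraries of each sex as separate, though they came from 3 cultures. Females were higher by 2.32 on the log2 scale (SE 0.40, edgeR, with an adjusted p of 0.0084) and in 3 of 3 pregnancies, and without set 5 the adjusted p was 0.16. It was the only gene called of the 5 receptor genes tested, against 7.59% of all 12252 genes called higher in females (at an unadjusted p under 0.05, 2 of the 5 and 31.7% of all genes). Without the filter 3 of 139 were called, against 3.56% of all genes, and DESeq2 called 5, against 9.96%, all higher in females. With the pregnancy as a replicate block 2 of 6 were called, both higher in females, against 15% of all genes. These were Vmn2r63 and Vmn2r1, whose log2 difference of 1.00 had an adjusted p of 0.0091 (edgeR) and was 0.88 with an adjusted p of 0.14 without the block. For no receptor gene did every female EV library lie above every male one, against 0.0709% of all genes.

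In cells 2 of 21 receptor genes tested were called between the sexes, both higher in females, against 3.19% of all 18048 genes called higher (at an unadjusted p under 0.05, 9 of the 21 and 22.3% of all genes). As in EVs, this fit took the 9 libraries of each sex as separate, though they came from 3 cultures. Vmn2r107 (chromosome 17) was at 0.366 to 0.933 CPM in female cells and 0.102 to 0.365 CPM in male cells, without overlap, which held for 0.354% of all genes with a count. Females were higher by 1.47 on the log2 scale (SE 0.24, edgeR, with an adjusted p of 0.0020) and in 3 of 3 pregnancies. In EVs, where it ran from 0 to 4.12 CPM in females and 0 to 4.57 CPM in males, the fitted difference was -0.16 on the log2 scale (SE 0.57, edgeR, with an adjusted p of 0.88), and the difference between EVs and cells was not tested. Vmn2r51 (chromosome 7) differed by 1.83 on the log2 scale (SE 0.47, edgeR, with an adjusted p of 0.031), with 112 counts (2.47 CPM) in the female set 3 control cells and 2 to 19 counts in each other cell library. It was not called when any 1 set was left out, at 1.02 without set 3. Vmn2r107 was not called without set 5, with an adjusted p of 0.082. Vmn2r51 reached the level of the filter on low counts in female cell libraries alone. It was thus tested only through libraries of the sex where it was high, and its call is given as a description. Vmn2r107 reached that level in every female cell library but only in some male ones, and its call is given in the same way. With the pregnancy as a replicate block 4 were called, adding Vmn2r12 and Vmn2r73, all higher in females, against 6.79% of all genes.

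The last comparisons ask whether ethanol moved these genes. The summed level in EVs was 39.0 to 177 CPM at 0 mg/dL (median 52.7), 44.8 to 90.2 CPM at 120 mg/dL (median 64.6) and 43.0 to 92.2 CPM at 320 mg/dL (median 60.3, n = 6 each), all overlapping. Within cultures the log2 ratio to the control was 0.01 ± 0.53 SD at 120 mg/dL and -0.08 ± 0.66 SD at 320 mg/dL, with the female set 4 culture falling by 0.97 and 1.37 on the log2 scale from its high control. Without that control library the mean log2 ratios over the other cultures were 0.21 and 0.18, so that the direction at 320 mg/dL rested on 1 library. In cells the sum was 16.6 to 27.9, 16.7 to 24.9 and 16.1 to 22.0 CPM at the 3 doses, with log2 ratios of -0.02 ± 0.34 SD and -0.18 ± 0.36 SD. The differences were smaller than their spread between cultures at both doses in both locations.

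No receptor gene was called at either dose. In EVs 0 of 6 tested genes passed at 120 mg/dL, where 0.00758% of 13193 genes did, and 0 of 6 at 320 mg/dL, where 0.0758% did. In cells 0 of 25 passed at either dose, where 0 of 18725 genes did. At an unadjusted p under 0.05 there were 0 and 1 receptor genes in EVs (5.94% and 10.8% of all genes) and 0 and 3 in cells (2.54% and 8.41%) at 120 and 320 mg/dL, and DESeq2 without the filter called 0 in each of the 4 among genes it gave an adjusted p. The change of the EV-to-cell ratio at 320 mg/dL was called for 0 of 81 receptor genes and 0 of all 22854 genes by edgeR (0 receptor genes at an unadjusted p under 0.05, and 0 by DESeq2). The gene nearest to a call was Vmn2r63 in EVs at 320 mg/dL, at 1.24 to 20.7 CPM (median 5.16) against 0.548 to 18.7 CPM (median 2.91) in the controls. The difference was 1.21 on the log2 scale (SE 0.32, edgeR), with an unadjusted p of 0.0017 and an adjusted p of 0.17. It was called only when no filter was used, with an adjusted p of 8.4e-04, as were 0.321% of all genes called higher in that fit, and DESeq2 gave it no adjusted p. Vmn2r26 was at 6.62 to 13.5, 5.13 to 14.6 and 2.58 to 13.9 CPM in EVs at the 3 doses, with adjusted p-values of 0.85 and 0.84 (edgeR).

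The genes that carry the signal of these receptors in sensory cells were low or listed at 0, apart from widely expressed ones. For Trpc2 and Omp, which overlap other genes of the table, the 0 does not show that a transcript was missing. Of 9 vomeronasal signalling genes 6 were tested, 5 were higher and 1 lower in EVs, with a median log2 fold change of 1.90 against -0.14 for all genes, of which 38.1% were higher and 43.7% lower, the shares that also stand beside the counts of the other lists here. Gnao1, the Gαo gene that neurons use widely, was at a mean of 31.0 CPM in EVs and 14.2 CPM in cells (edgeR log2 difference 1.56, SE 0.29, with an adjusted p of 7.0e-06), while Trpc2 and Omp were listed at 0. The 9 vomeronasal MHC genes (H2-M1, H2-M9, H2-M10.1 to H2-M10.6 and H2-M11) were summed at 0 to 1.94 CPM in EVs and 0.0257 to 0.327 CPM in cells, and 0 were tested. Of 9 taste signalling genes, of which Calhm3 was not used here, 4 were tested and 4 were higher in EVs, among them Trpm5 at mean levels of 1.13 and 0.590 CPM and Gnat3 at 0.514 and 0.0862 CPM (edgeR log2 difference 2.89, SE 0.37, with an adjusted p of 7.1e-09). The means of both genes in cells lay below the filter's level of 0.624 CPM. Genes of these lists could thus enter the fit through EV libraries where they were high, and their calls are given as a description. Of 8 markers of vomeronasal or olfactory sensory neurons 3 were tested and 2, Gnal and Rtp1, were higher in EVs, and their summed level was 5.53 to 30.9 CPM in EVs and 7.23 to 13.0 CPM in cells, with Omp and Trpc2 at 0. Of 8 taste receptor cell markers, which share Gnat3, Trpm5, Plcb2, Calhm1 and Calhm3 with the signalling list, 3 were tested and 3 were higher in EVs, at sums of 0 to 8.83 CPM in EVs and 0.887 to 2.82 CPM in cells. Of the 12 neural stem cell markers 10 were tested, 1 higher and 7 lower in EVs.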

How the data were processed

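The 161 genes and all gene lists were chosen with earlier results of these data known. The deposited files hold whole-number counts per gene (unit: counts, not normalized) for 36 libraries. Per the study's methods and the submitters' processing notes, the authors prepared rRNA-depleted stranded libraries, removed adapters and duplicate reads, trimmed with Trimmomatic, aligned with STAR to mm39 and counted with HTSeq. The annotation, the strand setting and the treatment of reads with several equal places are not given in the sources used here. Counts enter all tests as deposited; no depth beyond the total counts is known.

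CPM were a gene's counts on the counts-per-million scale of the library's total, with no pseudocount. EVs and cells, doses and sexes were compared with edgeR 4.0.16 (R 4.3.3): TMM factors, filterByExpr with a minimum count of 10, quasi-likelihood test, Benjamini-Hochberg adjustment over all genes tested, threshold 0.05. The SE is the log2 fold change divided by the square root of the F value. The location fit used terms for sex and dose, the dose fits a block for the culture, the ratio fit a block for each sample's pair of libraries, and the sex fits a term for dose. DESeq2 1.42.0 was an alternative, as were other scalings, no filter, thinning, blocks and leaving out sets. The fits were tested on simulated data. Libraries of a culture are passaged portions of 1 culture, so that p-values measure in part the spread between cultures of 3 pregnancies. The sex fits had no term for culture and took the 9 libraries of each sex as separate, though they came from 3 cultures. Their p-values thus measure in part the spread within cultures and can be too small for a difference between sexes. Same-numbered libraries share a pregnancy by the labels: deviations from the group means correlated with a median of 0.68 between control and ethanol cells of a culture, 0.20 in EVs, 0.38 between sexes in cells, 0.11 in EVs and 0.07 between the EV and cell library of a sample.

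Positions, lengths and overlaps came from GENCODE vM39 on GRCm39, the assembly named mm39, matched by symbol for 160 of 161 genes; Vmn2r122 was not matched. Copies were exact matches of 100-base exonic windows every 25 bases, found with megablast in GRCm39. Olfactory receptor symbols matched no annotated length, so no level per length is given for them. Named genes were the Tas1r genes, the 5 Vmn2r and 5 Tas2r genes of highest mean CPM in each location, up to 10 called genes per comparison that moved 1 way in all cultures or pregnancies, and their nearest genes. Others (Vmn2r20, Vmn2r21, Vmn2r22, the genes with no count and those added by a block) were named after their values were seen. Vmn2r46 was named for its annotation. No sums over the genes were tested, and p-values are not given for them.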

Additional observations from a re-analysis of the deposited data

Results flagged for a closer look

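In groups of 6 libraries of a location and dose, 125 groups of values were searched for a library far from the others by Dixon's criterion, and 22 were found; chance gives about 1 in 20 groups, and groups with at most 3 counts in any library were not searched. The female set 4 control EVs stood out in the sum of all receptor genes (177 CPM, next 83.5) and of Vmn2r (174 CPM), and in Vmn2r1 (13.2 CPM), Vmn2r102 (2.94 CPM), Vmn2r103 (5.15 CPM) and Vmn2r51 (5.15 CPM). Vmn2r63 stood out in female set 3 EVs at 0 mg/dL (18.7 CPM, next 5.15) and at 120 mg/dL (15.3 CPM, next 4.54), and in male set 4 cells at 320 mg/dL (1.64 CPM). Female set 4 EVs at 120 mg/dL were low in Vmn2r26 (5.13 CPM, next 12.5) and high in Vmn2r94 (5.13 CPM). Vmn2r30 was high in female set 5 control EVs (2.47 CPM) and male set 4 EVs at 320 mg/dL (2.16 CPM), and Vmn2r102 in female set 5 EVs at 320 mg/dL (2.31 CPM).

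In cells, the female set 3 controls were high in Vmn2r51 (2.47 CPM, next 0.244) and Tas1r2 (0.881 CPM). Male set 3 cells at 320 mg/dL were high in Tas1r1 (1.06 CPM) and Vmn2r29 (6.13 CPM), and female set 5 cells at 120 mg/dL in Vmn2r107 (0.933 CPM). Among bitter receptors, Tas2r137 was high in female set 5 controls (0.317 CPM), and Tas2r143 (0.340 CPM) and Tas2r135 (0.204 CPM) in male set 5 cells at 320 mg/dL.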

How the results depend on the processing

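Counts per gene limit these results: most receptor genes had a few counts in all EV libraries together, and the number that can be called follows the filter. Of EVs against cells, 24 of 28 receptor genes tested were called, 109 by DESeq2 without the filter, 113 of 153 by edgeR without the filter and 77 of 81 with the replicate block. Shares of all genes in these fits are given above. After thinning only Vmn2r26 was tested, and it was called, where 3638 of all 9557 genes were called higher. Leaving out set 3, 4 or 5 gave 33 of 37, 22 of 25 and 22 of 29. Of all genes, 7342 of 18437, 6396 of 17763 and 6600 of 17954 were then called higher. Leaving out the female set 4 control EVs, chosen after seeing the data, gave 41 of 46. Between the sexes in EVs 1 was called, and 5 by DESeq2, 3 without the filter and 2 with the replicate block. Leaving out set 3, 4 or 5 gave 2 of 6, 1 of 5 and 0 of 3 receptor genes tested. Over all genes 3477 of 12878, 423 of 12306 and 3 of 11170 were then called. In cells 2 were called, and 4 with the replicate block. Leaving out set 3, 4 or 5 gave 1 of 20, 2 of 24 and 0 of 22, where 2063 of 18132, 1166 of 18622 and 216 of 18167 genes were called. Without set 5 the calls thus fell over all genes too. At 320 mg/dL in EVs 0 became 1 without the filter. The replicate block changed no other count of calls by over 1.5 times. The female-to-male log2 ratio of the sums in EVs, 0.86, became 1.31 without the members that overlap another gene. The share of the receptor genes seen per library, a median of 37.6% in EVs and 55.3% in cells, became 17.7% and 7.14% after thinning and 11.5% and 28.3% with a minimum of 3 counts. In these last cases the alternative itself removes counts; for the others the cause was not tested. Adding -ps pseudogenes gave no value, since the table held 0 of them in these families. Leaving out Vmn2r26 and Vmn2r63 was also chosen after seeing the data. Without the female set 4 control EVs the log2 ratio of the EV sums at 320 mg/dL to the control changed sign, from -0.08 to 0.18, within the spread between cultures.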
